A study of Mus musculus with 6 samples.

Results

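The proteasome is the large protease that degrades ubiquitin-tagged proteins, and 47 genes of the deposited table carry its subunit names. They were taken by name, as Psma to Psmg followed by a number, from 21362 gene names. RNA sequencing had measured 6 libraries of mouse CD4+ T cells in a series on sorafenib, a kinase inhibitor used against liver and kidney cancer, and its effect on regulatory T cells. The labels give each library a number and a cell type but no treatment, strain, age or mouse, so no library was placed in a group, none was averaged or tested against another, and no p-value is given. Whether each library stems from its own mouse or culture is not stated. The libraries are called library 1 to library 6 after their titles, and values in a series follow that order. Total counts lay between 32435799 and 36316162 per library. Levels between libraries are given as CPM, reads of a gene scaled to one common library size after TMM adjustment, and levels between genes as the authors' FPKM, which also divides by gene length. Of the 47 genes, 46 averaged 1 CPM or more and are called measured.

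The barrel of the proteasome, the 20S core, is built of rings of alpha and beta subunits, and the catalytic sites lie on beta subunits inside it. The 19S cap binds ubiquitin chains, removes them and threads the protein into the core with a ring of ATPases. In lymphocytes and after exposure to interferon-gamma, the immunoproteasome subunits Psmb8, Psmb9 and Psmb10 take the places of the constitutive catalytic subunits Psmb5, Psmb6 and Psmb7, which changes the peptides made for MHC class I. Other caps, such as the activator formed by Psme1 and Psme2, can replace the 19S cap.

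Transcripts of T cells were present in each library, with 8 T cell genes between 139 CPM for Cd3g and 848 CPM for Cd28. Cd4, the marker of helper T cells among them, stood at 436, 426, 412, 480, 475 and 482 CPM. Foxp3, the factor that defines regulatory T cells, stood at 7.37, 7.66, 7.86, 11.9, 13.4 and 11.2 CPM, which is low beside the most abundant identity gene, Il2ra, with 2301, 2201, 2178, 1556, 1613 and 1778 CPM. Ctla4, an inhibitory receptor of regulatory and activated T cells, had the widest range of these genes, with 1526, 1559, 1548, 791, 771 and 809 CPM. Of 22 markers of other cell types, 21 had a row in the table and 14 of them stayed below 1 CPM in all 6 libraries. Cd14, Csf1r, Xcr1, Siglech, Ncr1 and S100a8 had at most 3 reads in each. The summed level of the 21 markers lay between 30.8 CPM (library 6) and 61.2 CPM (library 3), mostly through the epithelial gene Epcam, at 40.6, 44.6, 46.1, 14.03, 14.03 and 13.4 CPM. Without Epcam the sum lay between 15.1 CPM (library 3) and 17.7 CPM (library 5). Cd79a of B cells and Flt3 of dendritic cell precursors also ranged more than 2-fold, at up to 1.75 and 1.74 CPM. After Epcam the highest marker was Cd8b1 of CD8+ T cells, at 8.56, 8.93, 8.15, 9.57, 8.65 and 9.31 CPM. Cd8a, of the same cells, stayed below 1 CPM in each library. Both were named after their values had been seen. Mitochondrially encoded genes took between 1.90% and 2.45% of reads. The part of these differences in the results on proteasome genes was not tested, and in bulk samples fewer cells of a type and less RNA per cell cannot be told apart.

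Proteasome genes were abundant. The measured genes had a median of 43.5 FPKM, against 7.56 FPKM for all 11516 genes that averaged 1 CPM or more, and 45 of 46 lay above that median of all genes. Psme1, a chain of the ring-shaped activator, was the highest with a median of 276 FPKM, followed by the structural core subunit Psmb1 with 192 FPKM and the immunoproteasome subunit Psmb8 with 183 FPKM. Psmb1 spanned 182 to 201 FPKM and Psmb8 spanned 160.03 to 208 FPKM, so these neighbours in the order overlapped. Psmd9, an assembly chaperone of the 19S base, was the lowest measured gene with 4.06 FPKM. Reads of the proteasome genes made up 0.344%, 0.354%, 0.354%, 0.394%, 0.398% and 0.401% of all counts. The exact Clopper-Pearson 95% interval was 0.342% to 0.346% in library 1 and 0.398% to 0.403% in library 6. Such shares, like FPKM, are relative to the plain library total. On that scale the median of all genes itself ran from -0.07 log2 units in library 1 to 0.06 in library 5, a span of 0.12. On the TMM scale that span was 0.013.

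**Figure D1:**
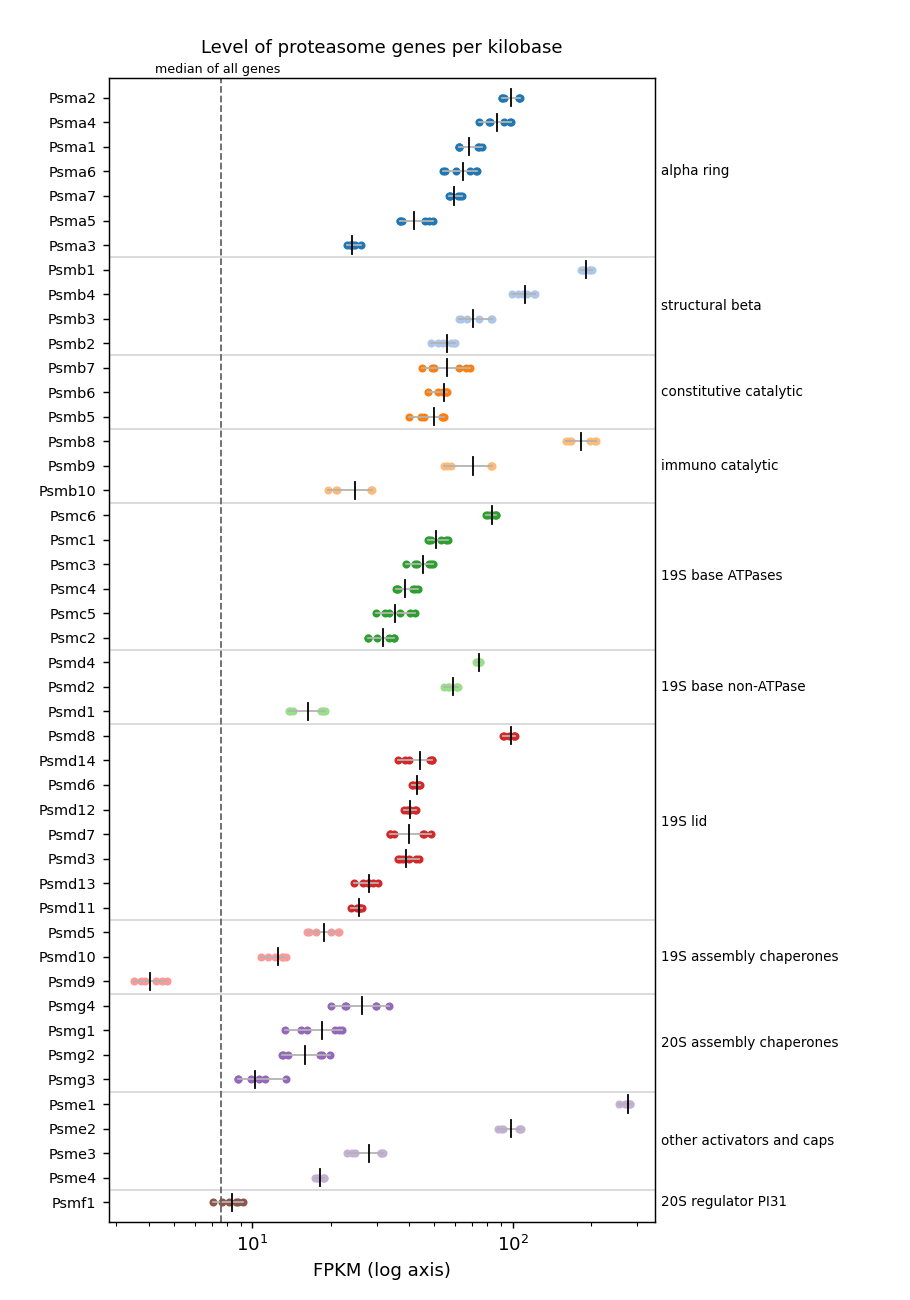
FPKM of the 46 measured proteasome genes (horizontal log axis) by role, with 1 point per library, a black tick at the median over the 6 libraries and a dashed line at the median of all genes, 7.56 FPKM. Psme1, Psmb1 and Psmb8 stand highest, and only Psmd9 lies left of the dashed line.

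In the alpha ring, which gates the entry to the core, the 7 genes had median levels from 24.2 FPKM for Psma3 to 98.8 FPKM for Psma2. Psma2 stood at 89.8, 91.1, 89.2, 95.8, 95.5 and 97.7 CPM, within 1.10-fold, and its values in libraries 4, 5 and 6 were the highest. Psma7 was nearly level, with 95.2, 95.01, 94.1, 97.2, 95.3 and 94.8 CPM and a fold range of 1.03 between the highest and the lowest library. Psma5 and Psma6 had the largest fold ranges of the ring, 1.25 and 1.25. Of the 7, 3 reached a range of 1.2-fold, against 67.7% of all genes, and 0 reached 2-fold, against 10.5%. The low FPKM of Psma3 rests on the gene length of 3325 bases that its counts and FPKM imply, and its read level of 77.6 to 84.0 CPM was near that of Psma1, at 80.7 to 91.7 CPM, whose implied length was 1255 bases. Psma8, the germ cell form of an alpha subunit, had 0, 3, 1, 3, 2 and 1 reads, at or under the floor of 3 counts in each library, so no fold range is given for it.

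Among the 4 structural beta subunits, which carry no active site, Psmb1 led and moved apart from its neighbours. It stood at 213, 215, 215, 181, 185 and 186 CPM, highest in libraries 1, 2 and 3. Psmb3, in contrast, stood at 47.3, 48.2, 50.6, 52.1, 57.7 and 59.0 CPM, lowest in library 1 and highest in library 6. Psmb4 and Psmb2 both ranged 1.13-fold, from 98.1 to 111 CPM and from 43.7 to 49.4 CPM. Libraries 1, 2 and 3 were highest for Psmb1 with DESeq2 size factors, plain totals and FPKM too. By place in the core, summing both subunits where 2 genes share a place, the levels were unequal. The place of Psmb5 and Psmb8 was highest in every library, between 204 and 262 FPKM, and that of Psma3 lowest, between 23.1 and 26.1 FPKM. The rank of Psma3 rests on its implied length, since by reads, at 77.6 to 84.0 CPM, it was above Psma5, Psma6, Psmb2 and Psmb3 in every library.

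The immunoproteasome subunits had higher FPKM than their constitutive counterparts at 2 of the 3 catalytic places. Psmb8, which carries the chymotrypsin-like site of the immunoproteasome, stood at 165, 167, 160.0, 199, 208 and 207 FPKM. Psmb5, the constitutive subunit of that place, stood at 40.1, 45.8, 44.3, 53.8, 54.4 and 53.5 FPKM. Their ratio, which needs no scaling between libraries, was 4.11, 3.65, 3.61, 3.70, 3.83 and 3.87, highest in library 1. Psmb10, of the trypsin-like place, was the minor subunit there, with 19.6, 21.1, 20.9, 28.6, 28.4 and 28.7 FPKM. Psmb7, its constitutive counterpart, stood at 44.7, 49.8, 48.9, 62.2, 66.0 and 68.5 FPKM. The ratio of Psmb10 to Psmb7 was 0.437, 0.424, 0.428, 0.461, 0.431 and 0.419, and the counting intervals of its highest and lowest library overlapped. The 3 immunoproteasome genes together held between 61.7% and 64.5% of the FPKM of the 6 catalytic genes.

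The third catalytic place differed more between libraries. Psmb9, the immunoproteasome subunit there, stood at 54.6, 58.2, 55.7, 83.0, 82.5 and 82.3 FPKM. Psmb6, its constitutive counterpart, stood at 47.3, 51.7, 53.8, 56.0, 55.3 and 55.3 FPKM. The ratio of Psmb9 to Psmb6 was 1.153, 1.13, 1.03, 1.48, 1.49 and 1.49. Psmb9 was thus in slight excess in libraries 1 and 2 and higher again in libraries 4, 5 and 6. In library 3 no excess beyond counting error was seen, since the interval given next includes 1. The 95% interval for counting error ran from 1.41 to 1.58 in library 5, the highest, and from 0.977 to 1.096 in library 3, the lowest. In library 1, the highest of the other 3, its upper bound was 1.23. Between the highest and the lowest library this ratio changed 1.44-fold (95% interval 1.33 to 1.56), that of Psmb8 to Psmb5 1.14-fold (1.05 to 1.24) and that of Psmb10 to Psmb7 1.10-fold (1.0004 to 1.21). The intervals cover counting error for 2 libraries picked as the extremes, not the variation between cultures, and the difference between the 3 pairs was not tested. Without library 3 the fold of Psmb9 to Psmb6 was 1.33.

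**Figure D2:**
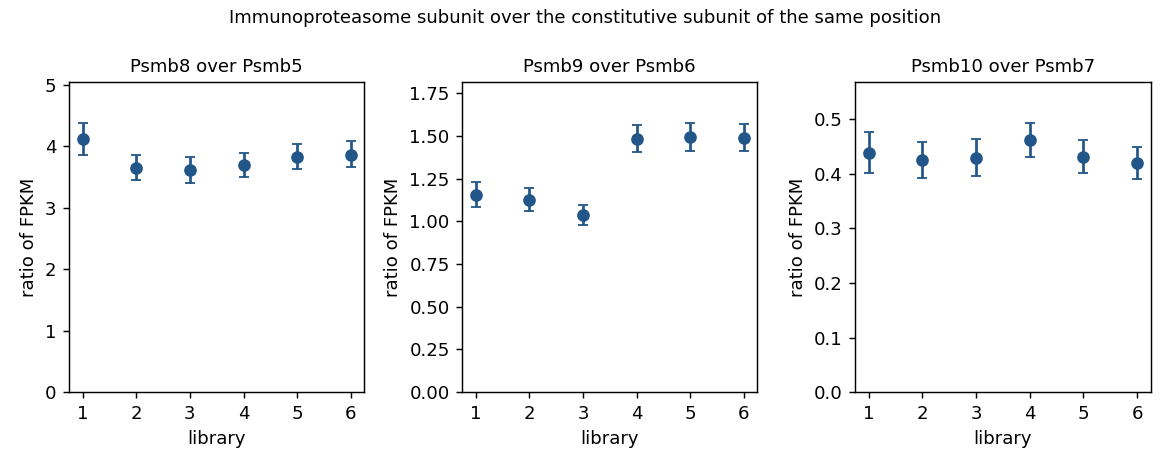
Ratio of FPKM of each immunoproteasome subunit over the constitutive subunit of the same place (vertical axis from 0) in libraries 1 to 6, with exact 95% intervals for counting error. Psmb8 over Psmb5 and Psmb10 over Psmb7 stay within 3.61 to 4.11 and 0.419 to 0.461, while Psmb9 over Psmb6 stands at 1.03 to 1.153 in libraries 1 to 3 and 1.48 to 1.49 in libraries 4 to 6.

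On the TMM scale Psmb9 and Psmb10 ranged more than most subunits, while Psmb8 was near the median fold range of proteasome genes, 1.19. Psmb9 stood at 73.0, 77.7, 73.8, 102, 101 and 102 CPM, a fold range of 1.40. Psmb10 stood at 25.9, 28.0, 27.5, 34.8, 34.6 and 35.3 CPM, a fold range of 1.36, and Psmb8 at 210.5, 213, 202, 233, 244 and 245 CPM, a fold range of 1.21. Each was higher in every one of libraries 4, 5 and 6 than in libraries 1, 2 and 3, under all 4 scalings. Psmb7, a constitutive catalytic subunit, ranged as far, with 49.4, 54.9, 53.5, 62.9, 66.8 and 70.1 CPM and a fold range of 1.42. Psmb5 stood at 36.4, 41.6, 40.0, 44.9, 45.4 and 45.1 CPM, lowest in library 1. Psmb6 stood at 55.5, 60.6, 62.6, 60.2, 59.5 and 60.1 CPM, lowest in library 1 and highest in library 3. Psmb11, the thymus form of a catalytic subunit, was not analysed here.

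Promoter sequence is shown because the constitutive and the immunoproteasome genes are known to answer to different factors. It is given for Psmb5, Psmb6 and Psmb8, and for other genes that held a searched motif, except Psmd2 and Psmg1. The factor encoded by Nfe2l1 is known to act on many constitutive proteasome genes through antioxidant response elements, and interferon-gamma acts on the immunoproteasome genes through interferon-responsive elements. RefSeq promoters of GRCm38.p6, from 250 bases before to 50 bases after each start, were matched for 39 of the 47 genes, and Psmb7 was not among them. The antioxidant response element core TGACNNNGC was found on either strand in 6 of 39 genes, or 15.4%, against 13.99% of all 27025 genes with a promoter of that length. Psmb6 (chr11:70525107-70525356, + strand, -250 to -1 from the start) and Psmb5 (chr14:54618023-54618245, - strand, -250 to -28) both held it, at -9 to -1 and at -47 to -39, in capitals here.
Psmb6: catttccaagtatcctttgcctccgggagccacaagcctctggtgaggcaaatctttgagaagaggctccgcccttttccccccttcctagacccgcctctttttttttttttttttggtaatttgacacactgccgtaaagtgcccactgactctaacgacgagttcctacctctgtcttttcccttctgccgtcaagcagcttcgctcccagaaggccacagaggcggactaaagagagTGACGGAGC
Psmb5: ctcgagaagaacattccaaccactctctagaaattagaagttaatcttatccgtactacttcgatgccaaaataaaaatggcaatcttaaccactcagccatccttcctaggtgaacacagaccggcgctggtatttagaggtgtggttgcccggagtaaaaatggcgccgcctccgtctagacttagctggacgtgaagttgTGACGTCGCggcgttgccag
The other 4 genes with that core were Psmd9 (chr5:123228148-123228177, + strand), Psmd12 (chr11:107479278-107479307, + strand), Psmc6 (chr14:45329586-45329615, + strand) and Psme4 (chr11:30771757-30771786, + strand), each shown over 30 bases. In Psmd12, Psmc6 and Psme4 the capitals are its reverse complement.
Psmd9: tatctagccggTGACCCCGCccacttccaa
Psmd12: tctGCTGTGTCAcatttgcccccctcagac
Psmc6: gccagccagtaGCTAAGTCAggcattgctc
Psme4: gcgctgcggctGCAGCGTCAccagaagagc

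The interferon-stimulated response element core GAAANNGAAA was found in 5 of 39 genes, or 12.8%, against 3.99% of all genes. They were Psme1 (chr14:55578493-55578522, + strand), Psmb3 (chr11:97703261-97703290, + strand), Psmd4 (chr3:95042675-95042704, - strand), Psmd9 (chr5:123228021-123228050, + strand) and Psmg4 (chr13:34162969-34162998, + strand). The capitals mark the core, as its reverse complement in Psme1, Psmb3 and Psmd4.
Psme1: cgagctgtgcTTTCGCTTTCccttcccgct
Psmb3: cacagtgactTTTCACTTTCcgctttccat
Psmd4: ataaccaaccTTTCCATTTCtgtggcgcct
Psmd9: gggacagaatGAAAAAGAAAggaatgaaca
Psmg4: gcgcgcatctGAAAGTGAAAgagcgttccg
The windows of Psmb8, Psmb9 and Psmb10 did not hold these letters. TTCNNNGAA, the core of the interferon-gamma activated site, was added to the search after the data had been seen and was found in 3 of 39 genes, or 7.69%, against 9.55% of all genes. Psmd2, at 5 to 13 from the start, and Psmg1, at -243 to -235, held it and are not shown. Psmb8 (chr17:34198087-34198116, + strand) held it at -97 to -89, in capitals here.
Psmb8: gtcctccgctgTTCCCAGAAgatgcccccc
A match of such short letters is a description of the window and not evidence that a factor binds there.

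In the 19S base, the 6 ATPases that unfold the substrate had median levels from 31.8 FPKM for Psmc2 to 83.5 FPKM for Psmc6. Psmc6 stood at 213, 207, 209.8, 186, 181 and 179.7 CPM, highest in libraries 1, 2 and 3. The other 5 ATPases had libraries 4, 5 and 6 as their highest, though with DESeq2 scaling Psmc1 did not. Psmc5 ranged most among them, 1.31-fold, from 39.6 to 51.9 CPM. Psmc1, Psmc2, Psmc3 and Psmc4 ranged 1.09-fold to 1.17-fold. Of the non-ATPase base subunits, Psmd4, a receptor for ubiquitin chains, stood at 104, 101, 102, 94.8, 95.8 and 93.4 CPM and had the highest FPKM, 74.4. Psmd2, a scaffold that docks ubiquitin carriers, stood at 189.8, 198, 194, 193, 195 and 199 CPM, a fold range of 1.05. The other scaffold, Psmd1, ranged 1.27-fold, between 47.1 and 59.97 CPM.

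In the 19S lid, 8 genes had median levels from 25.7 FPKM for Psmd11 to 98.8 FPKM for Psmd8. Psmd8 stood at 161, 159, 159, 133, 135 and 141 CPM, highest in libraries 1, 2 and 3. Psmd7, the inactive partner of the lid deubiquitinase, stood at 56.6, 56.4, 58.0, 74.4, 69.7 and 70.0 CPM and had the largest fold range of the lid, 1.32. The deubiquitinase itself, Psmd14, ranged 1.24-fold, and had 58.3 CPM in library 1 and 72.4 CPM in library 4. Psmd3, Psmd6, Psmd11, Psmd12 and Psmd13 ranged 1.08-fold to 1.148-fold. Psmd8, Psmb1 and Psmc6 were the only measured genes with libraries 1, 2 and 3 highest under each of the 4 scalings. Psmd4, Psmd6 and Psme4 had that order with TMM and DESeq2 scaling but not with plain totals or FPKM.

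The assembly chaperones build the complex and leave it. Those of the core had a median fold range of 1.47 and those of the 19S base 1.23. Psmg1 and Psmg2 form a pair that starts the alpha ring, and Psmg3 and Psmg4 form a second pair. Psmg1 stood at 14.5, 17.7, 16.6, 22.0, 21.5 and 20.9 CPM, a fold range of 1.52, lowest in library 1. Psmg2 stood at 18.1, 18.2, 18.9, 25.3, 23.6 and 23.4 CPM, a fold range of 1.40. Psmg4 had the largest fold range of all measured genes, 1.53, with 11.6, 13.3, 13.0, 15.8, 17.7 and 16.1 CPM. In these 3 the lowest value of libraries 4, 5 and 6 was above the highest of libraries 1, 2 and 3. Psmg3 followed another order, with 7.98, 9.65, 7.92, 8.23, 9.31 and 11.3 CPM, highest in library 6 and next highest in library 2. Of the chaperones of the 19S base, Psmd5, which had the highest level with a median of 18.8 FPKM, stood at 34.7, 37.6, 35.1, 41.9, 39.6 and 42.8 CPM. Psmd10, also known as gankyrin, ranged 1.14-fold and Psmd9 1.24-fold.

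The caps that replace the 19S cap held the most abundant gene. Psme1 stood at 260.3, 282, 273, 258, 264 and 268 CPM, within 1.09-fold. Psme2, its partner in the interferon-inducible activator, stood at 94.0, 91.6, 88.9, 101, 98.9 and 101 CPM. The FPKM ratio of Psme1 to Psme2 was 2.77, 3.08, 3.07, 2.56, 2.68 and 2.65, highest in libraries 2 and 3. Psme2b is a near copy of Psme2, with 99.3% identity over an open reading frame of 720 bases. Of the 50-base windows of the Psme2 transcript, 59.3% also occur, on either strand, in transcripts of other genes. Psme2b took 25.6% to 26.9% of the reads of both, and whether those reads came from Psme2 was not tested. Psme3, which forms a nuclear activator, stood at 99.6, 104, 106, 123.2, 122.9 and 127 CPM, a fold range of 1.28, lowest in library 1 and highest in library 6. Psme4, a single-chain nuclear cap, was among the steadiest genes, with 139, 142, 140.4, 138, 138 and 138 CPM and a fold range of 1.03. Psmf1, which binds the core and was described as an inhibitor, stood at 27.5, 29.8, 31.5, 33.1, 31.6 and 31.3 CPM.

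**Figure D3:**
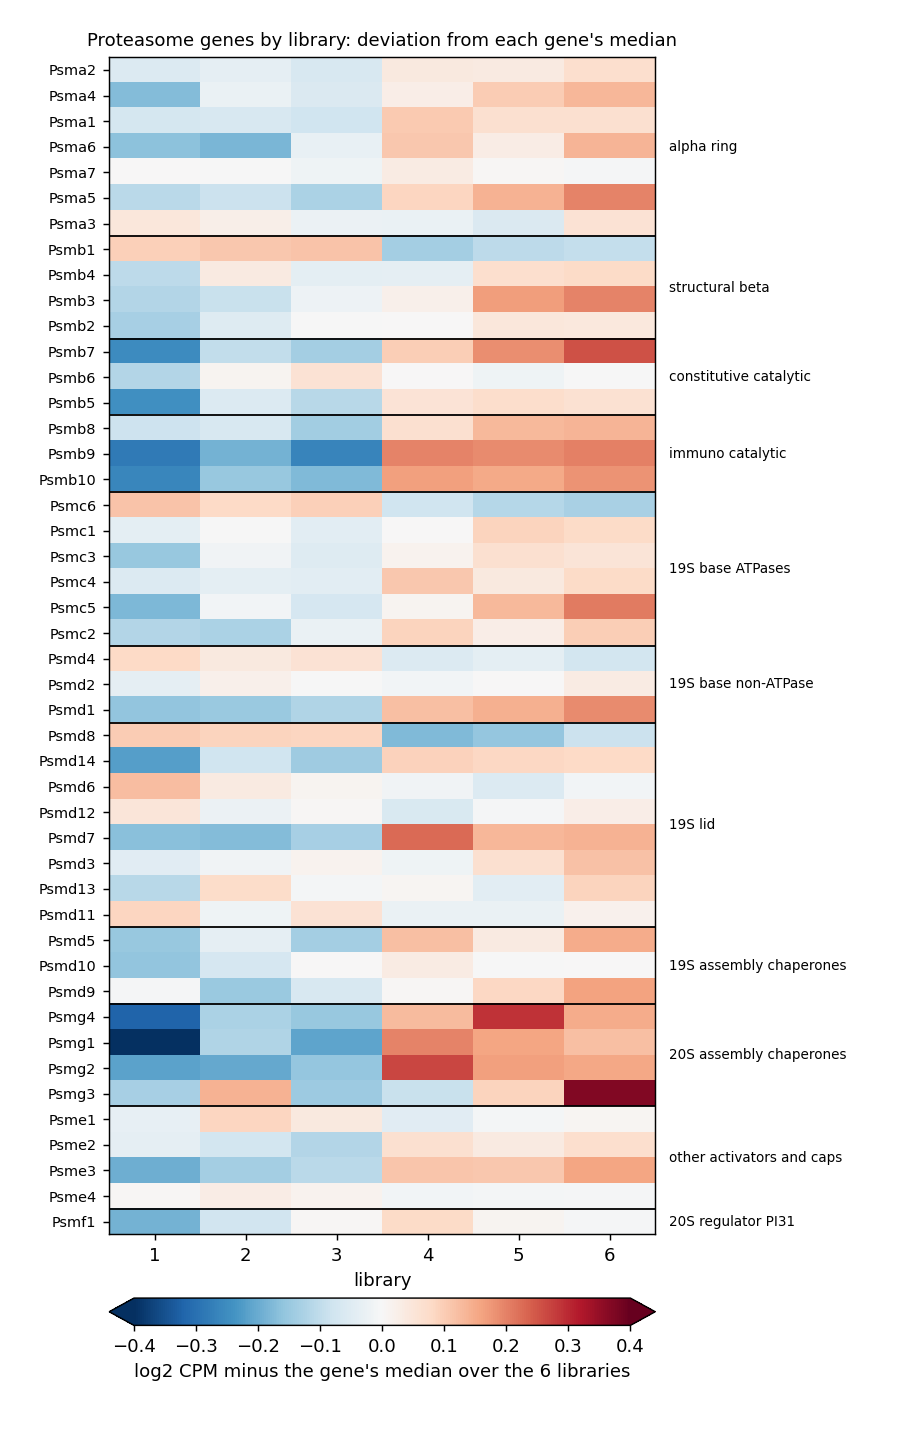
Deviation of log2 CPM from each gene's median over the 6 libraries (colour scale in log2 units, blue below and red above, clipped at 0.4) for the 46 measured genes in rows by role and libraries 1 to 6 in columns. Psmb9, Psmb10, Psmg1, Psmg2 and Psmg4 are blue in libraries 1 to 3 and red in libraries 4 to 6, and Psmb1, Psmc6 and Psmd8 show the opposite order.

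The fold ranges of proteasome genes were small. The fold range was 2 or more for 0 of 46 genes, against 10.5% of all genes, and 1.2 or more for 22 of 46, or 47.8%, against 67.7%. The median fold range was 1.19 for proteasome genes and 1.29 for all genes. Over the 8558 genes that averaged 9.07 CPM or more, the lowest average of a measured proteasome gene, the median was 1.23, 57.6% reached 1.2 and 3.56% reached 2. Over genes that averaged 5 CPM or more, 4.69% reached 2. With plain library totals 31 of 46 proteasome genes, or 67.4%, reached 1.2, against 69.8% of all genes, so the gap at that threshold depended on the scaling. The 2 genes nearest the threshold were Psmf1 at 1.204 and Psmb1 at 1.190. Exact Poisson 95% intervals of the highest and lowest library did not overlap for 41 of 46 proteasome genes, against 85% of all genes. The 5 exceptions were Psma7, Psmd2, Psmd10, Psmd12 and Psme4.

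**Figure D4:**
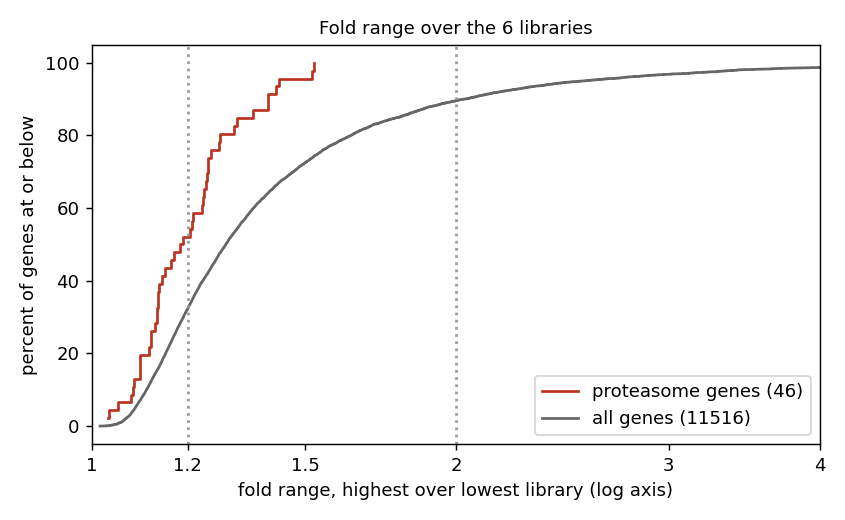
Cumulative share of genes (percent, vertical axis) by fold range between the highest and the lowest library (log axis, drawn up to 4) for the 46 measured proteasome genes in red and all 11516 genes in grey, with dotted lines at 1.2 and 2. The red curve ends at 1.53, the range of Psmg4, while 10.5% of all genes reach 2. Of genes that averaged 9.07 CPM or more, 3.56% reach 2.

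Over all genes the libraries formed 2 sets, with a chi-square per gene of 3.88 to 4.60 between pairs of libraries 1, 2 and 3, of 3.61 to 6.10 between pairs of libraries 4, 5 and 6, and of 43.4 to 53.2 between pairs across these sets. The order of many proteasome genes followed that split. Libraries 4, 5 and 6 were the 3 highest for 27 of 46 proteasome genes, against 30.3% of all genes, and libraries 1, 2 and 3 for 6 of 46, against 29.1%. Plain totals and FPKM both gave 39 and 3 of 46, against 46.5% and 18.2%, and DESeq2 size factors gave 25 and 6 of 46, against 28.6% and 30.7%. Library 1 gave the lowest CPM of 24 of 46 proteasome genes, against 22.6% of all genes, and library 6 the highest of 22 of 46, against 21.2%. Library 1 also had the smallest total count, 32435799, followed by library 5 with 33326634. The part of depth in these orders was not tested.

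The deviation from each gene's own median, taken at the middle gene of a list, shows how far a list moved between libraries. Over all 46 genes it was -0.11, -0.038, -0.042, 0.028, 0.054 and 0.077 log2 units, a span of 0.19. That span was 0.093 without library 1, 0.12 without library 6 and 0.31 with plain totals. By role it was 0.44 for the immunoproteasome genes and 0.43 for the chaperones of the core, at least 0.35 and 0.33 with any 1 library left out. For the constitutive catalytic genes it was 0.32, or 0.17 without library 1. The chaperones of the 19S base had a span of 0.30, or 0.18 without library 1 and 0.19 without library 6. The structural beta genes had 0.17, or 0.049 without library 1, and the ATPases 0.16, or 0.105 without library 1. Psmf1 had 0.27, or 0.146 without library 1. The alpha ring had 0.14 and the other caps 0.084, or 0.093 and 0.054 without library 6. Lid genes and non-ATPase base genes both had 0.070, or 0.0072 and 0.038 without library 6. Without library 1, 2 or 3 the span of the lid was 0.024 to 0.033, and without library 1 that of the non-ATPase base genes was 0.038.

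Genes that work with the proteasome were taken from lists that leave out the subunits themselves. Of 14 measured partners, which bind, assemble or feed the complex, 0 ranged 2-fold, against 10.5% of all genes, and 6 ranged 1.2-fold or more, against 67.7%, the share that also stands beside the list counts that follow. Over genes that averaged 9.07 CPM or more, 3.56% ranged 2-fold and 57.6% ranged 1.2-fold or more. Ecpas, which tethers the cap to the core, was the most abundant, with 196, 189, 172, 173, 168 and 174 CPM. Ubqln2, a ubiquitin carrier, had the largest fold range, 1.41. Of 11 genes of ubiquitin supply and of the p97 unfoldase, 4 reached 1.2-fold, led by the activating enzyme gene Uba6 with a fold range of 1.32. Rps27a, which encodes ubiquitin fused to a ribosomal protein, was the most abundant of them, with 1602, 1679, 1631, 1489, 1526 and 1577 CPM. Of 8 genes of proteasome gene control, 4 reached 1.2-fold, and Stat3 was both the most abundant and the most variable, with 1154, 1186, 1068, 720.4, 733 and 776 CPM. Nfe2l1 stood at 182, 182, 183, 204, 202 and 202 CPM and Nfe2l2, which encodes the related stress factor, at 43.3, 46.4, 47.0, 67.3, 62.4 and 55.4 CPM, both highest in libraries 4, 5 and 6. Mafg, like Stat3, was highest in libraries 1, 2 and 3, and Ddi2, Ngly1, Mafk and Keap1 followed neither order.

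Of 11 genes of the MHC class I pathway, 4 reached 1.2-fold, against 67.7% of all genes, and 0 reached 2-fold, against 10.5%. H2-K1, a class I heavy chain and the most abundant of them, stood at 2685, 2697, 2725, 2369.9, 2393 and 2388 CPM, highest in libraries 1, 2 and 3. Tap1, the peptide transporter gene whose exons overlap 5.79% of those of Psmb9, stood at 351, 342, 339.6, 401, 394 and 405 CPM, and Nlrc5, the activator of class I genes, at 171, 162, 159, 222, 224 and 222 CPM. Both were highest in libraries 4, 5 and 6, as was Pdia3, a thiol oxidoreductase of the loading complex, with 334, 336, 360.0, 462, 472 and 437 CPM. Of 8 genes of the interferon pathways that control the immunoproteasome, 2 reached 1.2-fold, against 67.7% of all genes. Ifngr1, a receptor chain for interferon-gamma, was the most variable, with 94.5, 92.1, 90.1, 64.6, 68.3 and 67.1 CPM, highest in libraries 1, 2 and 3. Irf1, a factor that acts on Psmb9, was nearly level, between 181 and 191 CPM. Tap1, Nlrc5, Nfe2l1, Nfe2l2, Mafg, Ddi2, Ngly1, Mafk, Keap1 and Irf1 were named after their values had been seen.

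Sequence shared with other genes limits some of these levels. Windows of 50 bases were compared with annotated transcripts of other genes on both strands. Of 47 genes, 23 shared no window, and 14 shared at least 10% of their windows. Besides Psme2, at least 50% was shared by Psmb5, Psmb3 and Psma5, with annotated copies such as Psmb5-ps. Psmb8 shared 5.83% of windows with Gm20496, Psmb9 12.5% with Tap1 and Psmb10 0% with any. Of their constitutive counterparts, Psmb5 shared 57.1%, Psmb6 2.67% and Psmb7 28.1%, the last with Nek6. Exons of Gm20496, Tap1 and Nek6 overlap those of Psmb8, Psmb9 and Psmb7 from the opposite strand, unlike a copy elsewhere. What shared sequence of either kind did to the ratios of the 3 pairs and to the immunoproteasome share was not tested. Identity of the open reading frames was 68.1% between Psmb8 and Psmb5, 66.4% between Psmb9 and Psmb6, and 63.4% between Psmb10 and Psmb7.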

How the data were processed

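RNA sequencing measured mouse CD4+ T cells in 6 libraries built with a VAHTS Universal V5 kit, according to the labels. Per the submitters' processing notes, the tools included HISAT2, HTSeq, fastp, DESeq2 and R 3.2.0, with the build GRCm39. Their settings, the strand rule and the annotation were not given in the sources used here. Deposited by the authors were raw read counts and FPKM values per gene, used unchanged. The ratio of count to FPKM was compared over 12470 genes with reads in every library and at least 100 over the 6 together. Per library total this ratio was constant within a relative 1.30e-07, so for these genes FPKM is another scaling of the same reads.

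Counts were scaled with TMM in edgeR 4.0.16 (R 4.3.3), with factors from 0.958 to 1.04. Fold ranges are the highest over the lowest library, from log2 CPM to which a prior count of 2 was added. Python 3.11.15 was used with Biopython 1.88, matplotlib 3.10.9, scipy 1.17.1, pandas 2.3.3 and numpy 2.4.6, and the procedure was tested on simulated counts. No library pair agreed within counting error (chi-square per gene 3.61 to 53.2). Intervals (95%) and the floor of 3 counts, 0.0791 to 0.0966 CPM, cover counting error only, since reads are not independent molecules. Alternatives were DESeq2 1.42.0 size factors, plain totals, FPKM with a pseudocount of 0.1, a prior count of 0.5, other filters on low genes (none, or 5 CPM on average), mitochondrially encoded genes left out, the mean of members and each library left out. Sequences are from RefSeq (GRCm38.p6) and shared windows and exon overlaps from GENCODE M21 (GRCm38), another build than the files. Protein sequences were not used here.

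The genes and lists were chosen with earlier results of these data known. Values in every library are given for the catalytic pairs, the other caps and Psmf1, the most abundant gene of each role, and the genes with the 5 largest and 3 smallest fold ranges above a mean of 10 CPM. Of the other lists, the most abundant and most variable genes and those ranging 2-fold are named, except 1 gene that is not reported here.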

Additional observations from a re-analysis of the deposited data

How the results depend on the processing

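No paired analysis was possible because the labels place no library in a group. With DESeq2 size factors, a filter at 5 CPM, a prior count of 0.5 or mitochondrially encoded genes left out, the counts and spans of proteasome genes moved little, except the span of the non-ATPase base genes, which was 0.045 with DESeq2 size factors. The share of all genes at 2-fold was 4.69% with the filter at 5 CPM, against 10.5%. Plain totals and FPKM moved most values. The median fold range was 1.25 under both. The spans of list levels under plain totals were 0.31 for all proteasome genes, 0.24 for the alpha ring, 0.29 for structural beta genes, 0.27 for ATPases, 0.18 for the non-ATPase base and for the lid, 0.41 for 19S chaperones, 0.19 for the other caps and 0.39 for Psmf1. In the same order, counting the base and the lid apart, FPKM gave 0.31, 0.24, 0.29, 0.27, 0.18, 0.18, 0.41, 0.19 and 0.39. These scalings shift the median of all genes by up to 0.12 log2 units between libraries. Without a filter 1 gene, Psma8, passed 2-fold, on at most 3 reads a library. The mean of members gave 0.12 for the other caps. Leaving out each library gave spans of 0.093 to 0.17 for all proteasome genes, 0.049 to 0.17 for structural beta genes, 0.17 to 0.31 for constitutive catalytic genes, 0.038 to 0.070 for the non-ATPase base, 0.0072 to 0.081 for the lid, 0.18 to 0.28 for 19S chaperones and 0.15 to 0.27 for Psmf1. The fold of Psmb9 to Psmb6 was 1.33 to 1.44. Each low end of a span came without library 1, except for the lid, where it came without library 6. The cause was not tested. With each library left out, the immunoproteasome span stayed between 0.35 and 0.43 and the count at 1.2-fold between 18 and 22. Plain totals and FPKM both gave an immunoproteasome span of 0.55 and a count of 31. Under both, the span was 0.44 for constitutive catalytic genes and 0.56 for the chaperones of the core. Summing Psme2 and Psme2b, chosen after seeing the data, gave a fold range of 1.14, against 1.13 for Psme2. The count of genes with separate intervals was not run on FPKM, which carries no counting interval. Depth limits Psma8, with at most 3 reads a library.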

Other observations

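By Dixon's criterion at the 95% level, 0 of 46 proteasome genes had a single library standing apart from the other 5, against 2.41% of all genes. In a list of this size 0 is near that share. The criterion looks for a single library and not for a split into sets of libraries. Psmg4, with a median of 26.4 FPKM, had the highest FPKM of the chaperones of the core at an implied length of 554 bases, while Psmg2 had more reads, with 18.1, 18.2, 18.9, 25.3, 23.6 and 23.4 CPM, against 11.6, 13.3, 13.0, 15.8, 17.7 and 16.1 CPM for Psmg4.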
